A study of Mus musculus with 4 samples.

Results

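The genes described here encode the proteins of the cardiac thick filament and of the M-band that links thick filaments at the middle of the sarcomere: Myh6, Myh7, Myl2, Myl3, Myl4, Myl7, Mybpc3, Myom1, Myom2 and Ttn. They were taken by name, as every probe set whose only gene symbol in the platform annotation was one of these 10. That gave 11 probe sets for 9 of the 10 genes, out of 8251 genes named on the array, and no probe set used here carried the symbol Ttn. Total RNA of whole mouse heart was hybridised to 1-colour oligonucleotide arrays, with 2 heterozygous pools and 2 wild-type pools. The identity of the heterozygous gene is not reported. All mice of both genotypes were adult males between 8 and 16 weeks of age on a 129/Black Swiss background, and RNA of every pool came from 5 hearts, as the labels give it. The labels do not say that the pools of a genotype were drawn from separate animals. The limma p-values therefore rest on the spread between pools, not between animals. In limma the spread of a probe set is moderated toward that of other probe sets of like signal.

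In the heart, myosin heavy chains form the rod and the motor head of the thick filament, and each head carries an essential and a regulatory light chain. The adult mouse ventricle uses mainly the fast alpha heavy chain of Myh6, whereas the slower beta chain of Myh7 prevails before birth and returns in many forms of cardiac stress. Light chains also differ by chamber, with Myl2 and Myl3 in the ventricle and Myl7 and Myl4 in the atrium, and Myl4 is made in the fetal ventricle too. Myosin-binding protein C holds heads in reserve along the filament, myomesins cross-link filaments at the M-band, and titin spans from the Z-disc to the M-band.

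Most of these transcripts were higher in the heterozygous hearts on the scale of the deposited values. By the brightest probe set of each of 9 genes, 8 rose (Myh6, Myl2, Myl3, Myl4, Myl7, Mybpc3, Myom1 and Myom2), none fell, and Myh7 did not pass. Counted by probe set, 11 were measured, 10 passed the filter on dim signals, 8 of these 10 were higher at an adjusted p under 0.05 (limma, Benjamini-Hochberg over all 7453 tested probe sets), 0 were lower and 2 were not called. Across the whole array, 38.3% of tested probe sets passed that threshold, 17.9% as higher and 20.4% as lower in the heterozygous pools. Higher calls made up 46.8% of all calls, and 58.5% when every array had its median set equal. Both heterozygous pools lay above both wild-type pools in 9 of the 10 tested member probe sets and in 34.6% of all tested probe sets. The median log2 change, heterozygous minus wild type, was 0.71 over the tested member probe sets (1.63-fold) and 0.00 over all tested probe sets. Mybpc3, Myom1, Myl7 and the brighter Myl4 probe set were called whichever pool was left out. The number of member probe sets called was 4 without heterozygous pool 1 and 4 without heterozygous pool 2, 9 when wild-type pool 1 was left out and 6 when wild-type pool 2 was. It was 1 (Myom1, adjusted p = 0.0357) when dim probe sets were kept in the fit.

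**Figure D1:**
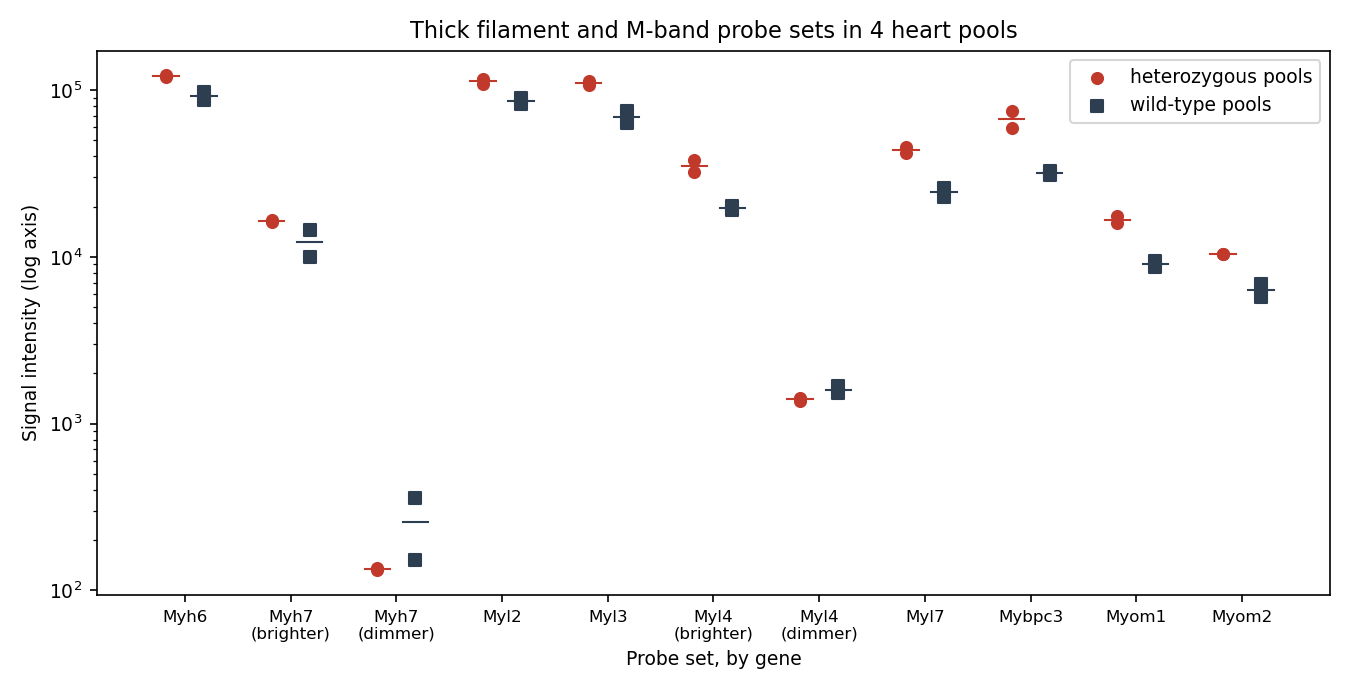
Signal intensity (log axis) of the 11 member probe sets in the heterozygous pools (circles, left) and the wild-type pools (squares, right), with a line at each mean of 2 pools. In 9 of the 10 tested probe sets both circles lie above both squares, and the dimmer probe sets of Myh7 and Myl4 run the other way.

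The labelled tissue was checked against marker genes. All 16 measured cardiomyocyte genes outside the sarcomere were tested and all 16 were higher, with a median log2 change of 0.79. None of 3 ventricular regulators on the marker list (Irx4, Hey2 and Mpped2) had a probe set used here. No measured marker of lymphocyte and thymus had a signal under the floor of 36.25 in any pool. This floor is a percentile of all values and not a limit of detection. Some markers were dim in the heterozygous pools, such as Ptcra (68.3 and 132). The 19 measured genes of this list summed to signals of 25918 and 24833 in the heterozygous pools, against 183698 and 185652 in the wild-type pools. Of those 19, 18 were lower, 0 were higher and the median log2 change was -3.08. The 16 tested cell cycle genes were all lower, with a median log2 change of -2.41. Lung epithelium markers, of which 2 were tested and both were higher, summed to 55042 and 47421 in the heterozygous pools, against 21739 and 18745 in the wild-type pools. Most of this sum was Scgb1a1 (52300 and 44849 in the heterozygous pools, against 21076 and 17939 in the wild-type pools). Of 3 tested erythroid genes 2 were higher, Alas2, which starts haem synthesis in red cells (log2 change 0.90, adjusted p = 0.00167), and Slc4a1, their anion exchanger (0.97, adjusted p = 0.00947). The alpha globin gene Hba-a1 did not pass (0.23), and the 3 summed to 160813 and 176598 in the heterozygous pools, against 144105 and 128666 in the wild-type pools. Hba-a1 alone gave most of it (138931 and 153184 in the heterozygous pools, against 130873 and 117516 in the wild-type pools). All arrays had nearly the same trimmed mean, so signals are relative to an array's total, and in such bulk samples fewer cells of a type and less RNA per cell cannot be told apart. The part of these other cells and tissues in the changes of the myosin genes was not tested.

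**Figure D2:**
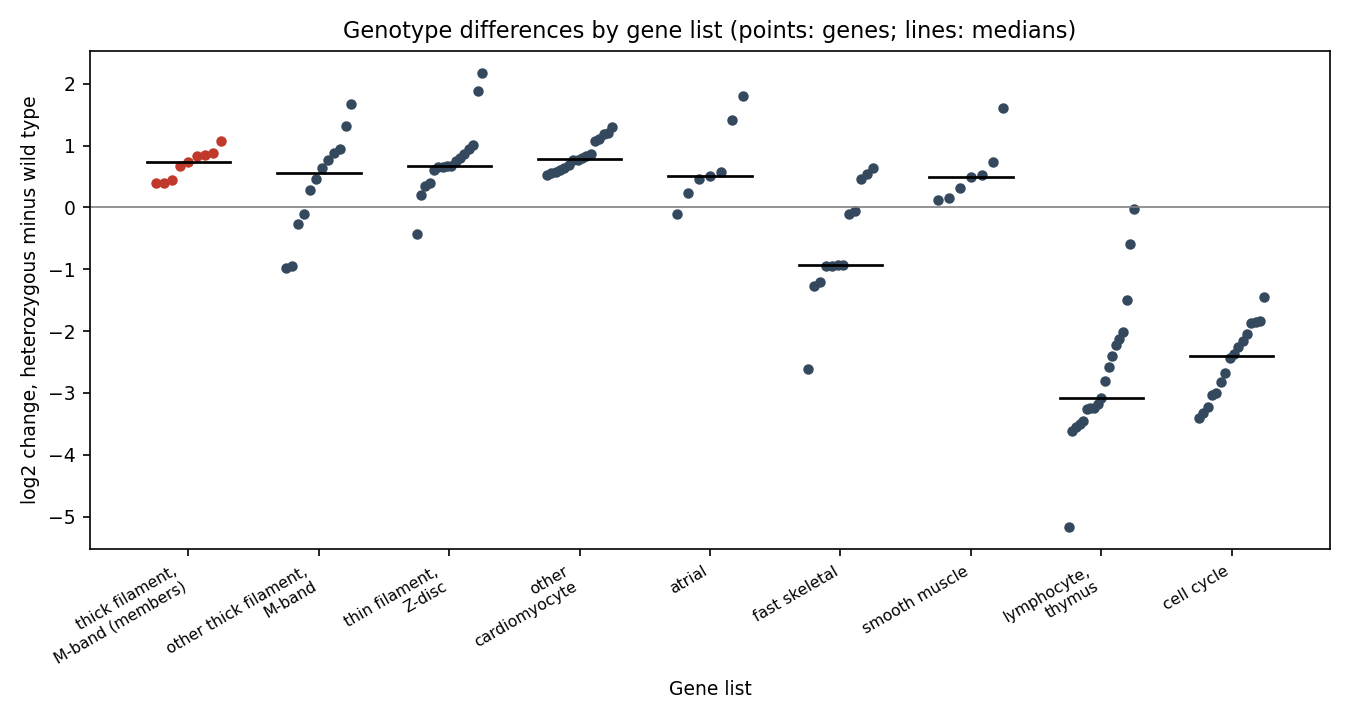
Log2 change, heterozygous minus wild type, of every tested gene of 9 lists (points; brightest probe set of a gene) with the median of the list (line). The thick filament and M-band genes, drawn first, lie between 0.39 and 1.07 beside the other heart muscle lists, while the lymphocyte and thymus list has a median of -3.08 and the cell cycle list one of -2.41.

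The alpha heavy chain gene Myh6 had signals of 122362 and 120639 in the heterozygous pools, against 97752 and 87078 in the wild-type pools. The heterozygous pools were the higher ones and the genotypes did not overlap. The mean was 121500 ± 1218 in heterozygous and 92415 ± 7547 in wild-type hearts (SD, n = 2 each), a 1.32-fold increase (log2 change 0.40, SE 0.12, adjusted p = 0.0321). This call was a narrow one: it ended under quantile normalization (log2 change 0.11) and cyclic loess (-0.029), without the mean-variance trend, and without wild-type pool 2 or either heterozygous pool. Among all tested probe sets the log2 change of Myh6 stood at the 73.2 percentile.

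The beta heavy chain gene Myh7 was read by a pair of probe sets whose names carry the suffix f, which on this platform marks probes that can be shared within a gene family, so signal from other myosin heavy chains cannot be separated from it. The brighter one had signals of 16158 and 16692 in the heterozygous pools, against 14568 and 10023 in the wild-type pools. Its genotypes did not overlap, but the wild-type pools differed from each other by 0.54 on the log2 scale, more than the difference between genotypes. It did not pass (log2 change 0.44, SE 0.18, unadjusted 95% interval 0.03 to 0.85, adjusted p = 0.0843), although it passed without wild-type pool 1 (0.71) and with array medians set equal (0.58). The dimmer one had signals of 131.9 and 136.6 in the heterozygous pools, against 358.2 and 152.5 in the wild-type pools. It lay among the lowest 40% of probe sets and was not tested.

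Myh6 and Myh7 are neighbours on chromosome 14, with 0 genes between them in the RefSeq annotation. Their promoter windows are shown because this pair carries the adult against fetal comparison, and 5 others are shown further on: those of Myl3, Myl7, Mybpc3 and Myom1, chosen after their matches were seen because they hold a CArG or MEF2 box, and that of Myl4, a gene that was also higher and whose window holds no match. Windows run from 250 bases before to 50 after an annotated start and come from RefSeq (build GRCm38.p6). They were found by symbol for 9 of the 10 genes, as 11 windows since Myh7 and Myl2 have a pair each. Any match by symbol on another chromosome, set aside for the members only, is not among these 11. The count over all windows kept that chromosome. Capitals mark matches, on either strand, to the MCAT element CATTCC, the core GATAA bound by GATA factors, the TATA letters TATAAA, the MEF2 box and the CArG box bound by serum response factor. No 2 matches overlapped in the windows shown.
Myh6 (chr14:54966558-54966857, minus strand): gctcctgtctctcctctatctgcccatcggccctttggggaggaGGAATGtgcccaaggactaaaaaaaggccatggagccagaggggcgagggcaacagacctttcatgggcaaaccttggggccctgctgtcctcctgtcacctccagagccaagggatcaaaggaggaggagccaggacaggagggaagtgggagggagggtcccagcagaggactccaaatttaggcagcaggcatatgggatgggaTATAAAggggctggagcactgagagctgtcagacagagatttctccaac
Myh7 (chr14:54994577-54994876, minus strand): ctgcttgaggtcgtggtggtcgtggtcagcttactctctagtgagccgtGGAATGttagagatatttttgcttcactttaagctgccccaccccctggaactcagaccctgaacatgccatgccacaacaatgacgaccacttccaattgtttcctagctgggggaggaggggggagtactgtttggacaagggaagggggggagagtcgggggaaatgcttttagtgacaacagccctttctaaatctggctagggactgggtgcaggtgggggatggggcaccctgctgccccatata
The Myh6 window holds an MCAT and a TATA match. Counted from the annotated start, this TATA match covers bases 1 to 6, so it does not lie before the start. The Myh7 window shown, chosen after its match was seen, holds an MCAT match, and the other Myh7 window, which starts at base 54994500 and overlaps it, holds none of the 5 motifs. In all 32851 windows of this length, MCAT letters occurred in 14.7% and TATA letters in 13.6%. Among the 11 member windows they occurred in 5 and in 2. A match describes letters only and was not tied to the signals.

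The isoform question can be put within an array, since the ratio of a pair of signals does not change when an array is multiplied by a constant. Levels of different probe sets are not on a common scale, so only the difference of a ratio between genotypes can be read. The log2 ratio of Myh7 over Myh6 was -2.92 and -2.85 in the heterozygous pools, against -2.75 and -3.12 in the wild-type pools. The heterozygous values lay between the wild-type values. Its means were -2.89 ± 0.05 in heterozygous and -2.93 ± 0.26 in wild-type pools (SD, n = 2 each), a difference of 0.05, or 1.03-fold, with p = 1 (two-sided exact permutation test). A test of 2 pools against 2 cannot give a p below 0.333. A shift between fetal and adult heavy chain was not detected, with a sign that turned without wild-type pool 2 (-0.14) and when the dimmer Myh7 probe set was averaged in (-0.58).

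Both ventricular light chain genes were higher. Myl2, the ventricular regulatory light chain, had signals of 108902 and 116616 in the heterozygous pools, against 89822 and 82139 in the wild-type pools. These genotypes did not overlap, and the increase was 1.31-fold (log2 change 0.39, SE 0.12, adjusted p = 0.0336). Like Myh6, it was no longer called under quantile normalization (0.098) or cyclic loess (-0.027), without the trend, or without wild-type pool 2 or either heterozygous pool. Myl3, the ventricular essential light chain, had signals of 107175 and 112905 in the heterozygous pools, against 74782 and 63825 in the wild-type pools. It was higher 1.59-fold without overlap (log2 change 0.67, SE 0.13, adjusted p = 0.00405). It lost its call under cyclic loess (0.26) and when either heterozygous pool was dropped (0.71 without pool 1, 0.63 without pool 2).

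Atrial light chain genes were higher as well. Myl7, the atrial regulatory light chain, had signals of 45272 and 41955 in the heterozygous pools, against 25793 and 22896 in the wild-type pools. Every heterozygous value was at least 1.63 times the highest wild-type value, and the increase was 1.79-fold (log2 change 0.84, SE 0.13, adjusted p = 0.00136). Myl4, the atrial and fetal essential light chain, had probe sets that disagreed. The brighter one had signals of 32359 and 37935 in the heterozygous pools, against 19215 and 20163 in the wild-type pools, a 1.78-fold increase (log2 change 0.83, SE 0.14, adjusted p = 0.00170). The dimmer one had signals of 1430 and 1367 in the heterozygous pools, against 1528 and 1668 in the wild-type pools. Its heterozygous pools were the lower ones without overlap, and it did not pass (log2 change -0.19, SE 0.17, unadjusted 95% interval -0.58 to 0.20, adjusted p = 0.417). The annotation gives an accession for the brighter and none for the dimmer probe set, so which Myl4 sequence the dimmer one reads is not known here.

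Of the 5 light chain windows, those of Myl3 and Myl7 hold a CArG box and that of Myl4 no match.
Myl3 (chr9:110763428-110763727, plus strand): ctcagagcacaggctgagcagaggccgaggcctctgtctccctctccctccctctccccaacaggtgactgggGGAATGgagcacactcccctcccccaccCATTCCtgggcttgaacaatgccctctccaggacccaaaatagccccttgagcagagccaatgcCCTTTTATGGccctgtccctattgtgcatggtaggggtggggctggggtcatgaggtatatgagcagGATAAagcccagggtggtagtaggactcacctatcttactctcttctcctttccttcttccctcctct
Myl7 (chr11:5898733-5899032, minus strand): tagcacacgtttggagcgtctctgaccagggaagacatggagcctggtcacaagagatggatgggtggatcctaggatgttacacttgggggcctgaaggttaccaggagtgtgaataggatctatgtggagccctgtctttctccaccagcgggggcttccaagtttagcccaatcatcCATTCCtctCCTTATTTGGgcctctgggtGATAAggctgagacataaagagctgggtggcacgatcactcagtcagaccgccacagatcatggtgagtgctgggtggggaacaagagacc
Myl4 (chr11:104550413-104550712, plus strand): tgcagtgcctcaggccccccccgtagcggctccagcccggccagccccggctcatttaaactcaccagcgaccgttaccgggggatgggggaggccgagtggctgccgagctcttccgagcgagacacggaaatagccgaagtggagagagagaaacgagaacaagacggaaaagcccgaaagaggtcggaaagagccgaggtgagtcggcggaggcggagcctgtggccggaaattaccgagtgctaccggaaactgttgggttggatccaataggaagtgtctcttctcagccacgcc
The CArG box was found in 3 of the 11 member windows and in 1.63% of all windows. Myl3 and Myl7 also hold MCAT and GATA matches, and GATA letters occurred in 5 of 11 member windows and 25.4% of all windows. Of the 2 Myl2 windows, not shown, 1 holds a GATA match and the other a TATA match, and neither holds an MCAT, MEF2 or CArG match. Myl4, whose window holds no match, was higher by its brighter probe set only, and no window was found for Myom2. Whether these letters bear on the signals was not tested.

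The regulatory light chain ratio, atrial over ventricular, did not overlap between genotypes. The log2 ratio of Myl7 over Myl2 was -1.27 and -1.47 in the heterozygous pools, against -1.80 and -1.84 in the wild-type pools. Both heterozygous ratios were the higher ones, by 0.45 in the mean or 1.37-fold (-1.37 ± 0.15 in heterozygous and -1.82 ± 0.03 in wild-type pools, SD, n = 2 each). The exact two-sided permutation test gave p = 0.333, the smallest that 2 pools against 2 allow. The difference ranged from 0.35 to 0.62 under quantile normalization, cyclic loess and with each pool left out in turn. Relative to 32 other heart muscle genes, as described further on, Myl7 changed by 0.043 and Myl2 by -0.41. Myl2 ranked 5th by mean signal, and whether the response of so bright a probe set was compressed was not tested. The essential light chains differed less: the log2 ratio of Myl4 over Myl3 was -1.73 and -1.57 in the heterozygous pools, against -1.96 and -1.66 in the wild-type pools. These values overlapped, with a difference of 0.16 (exact permutation p = 0.667), which turned to -0.35 when both Myl4 probe sets were averaged.

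**Figure D3:**
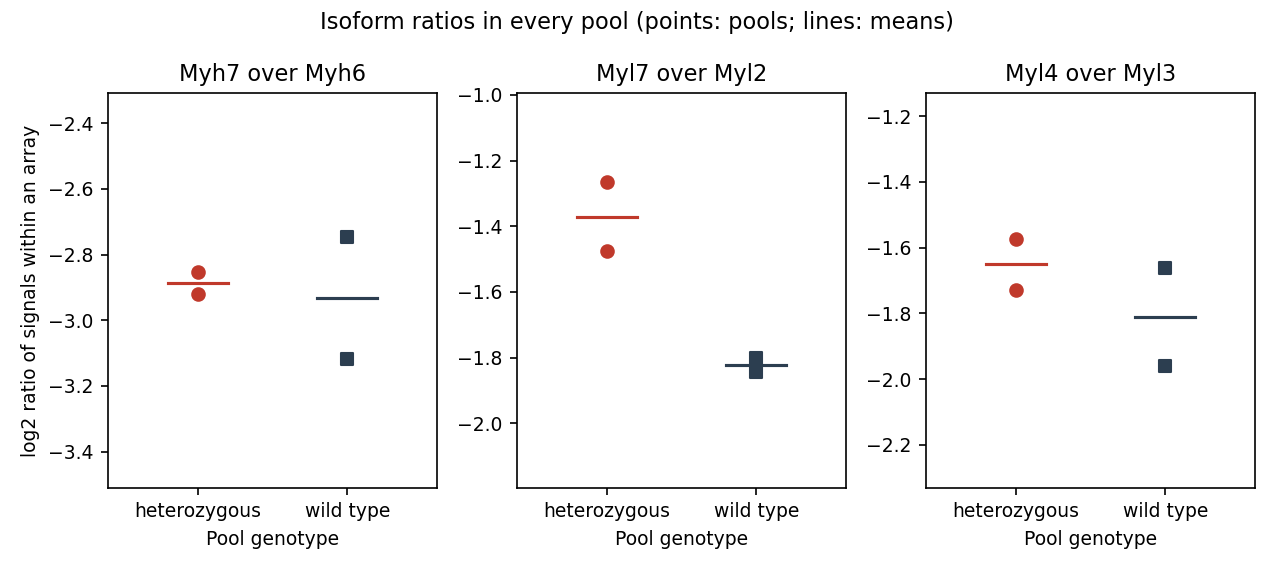
Log2 ratio of signals within an array for Myh7 over Myh6, Myl7 over Myl2 and Myl4 over Myl3 in the heterozygous pools (circles, left) and wild-type pools (squares, right), with lines at the means and the same span on every axis. Genotypes do not overlap for Myl7 over Myl2 (difference 0.45) and overlap for the other ratios (0.05 and 0.16).

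Other genes with atrial expression were looked at beside the light chains, from a list of 11 of which 7 were tested: 5 were higher, 0 were lower and 2 were not called, and the median log2 change was 0.50. Pam, which amidates peptides and is abundant in atrial granules, rose by 1.80 on the log2 scale (adjusted p = 3.4e-05). Kcna5, a potassium channel gene, rose by 1.41 (adjusted p = 0.00260), Stard10 by 0.50 and Dkk3 by 0.56. The other tested genes of this list, named after their values were seen, changed less. Nppa rose by 0.46, while Nr2f2 (0.22) and Gja5 (-0.11) did not pass. The list median was below that of the cardiomyocyte genes outside the sarcomere (0.79). The share of atrial tissue in the pools was not measured, and its part in the Myl7 over Myl2 ratio was not tested.

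Mybpc3, the cardiac myosin-binding protein C, had the largest increase among the member probe sets. Its signals were 59194 and 75041 in the heterozygous pools, against 32613 and 30766 in the wild-type pools. The heterozygous pools differed from each other by 0.34 on the log2 scale, yet the lower of them was 1.82 times the higher wild-type pool. The mean was 67117 ± 11206 in heterozygous and 31690 ± 1305 in wild-type hearts (SD, n = 2 each), or 2.10-fold (log2 change 1.07, SE 0.15, adjusted p = 7.3e-04), and this log2 change stood at the 95.8 percentile of all tested probe sets. It passed whichever pool was left out, from 0.90 without heterozygous pool 2 to 1.24 without heterozygous pool 1.

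The myomesin genes were both higher. Myom1, the main myomesin of the M-band, had signals of 17572 and 15906 in the heterozygous pools, against 8741 and 9481 in the wild-type pools. Its genotypes were well apart, with a 1.84-fold increase (log2 change 0.88, SE 0.14, adjusted p = 0.00135) that passed whichever pool was left out. Myom2, also called M-protein, had signals of 10467 and 10455 in the heterozygous pools, against 5713 and 6863 in the wild-type pools. The heterozygous pools were nearly equal, and the increase was 1.67-fold without overlap (log2 change 0.74, SE 0.15, adjusted p = 0.00453). It was not called when either heterozygous pool was dropped (0.74 each time). No value is given for Ttn.
Mybpc3 (chr2:91117894-91118193, plus strand): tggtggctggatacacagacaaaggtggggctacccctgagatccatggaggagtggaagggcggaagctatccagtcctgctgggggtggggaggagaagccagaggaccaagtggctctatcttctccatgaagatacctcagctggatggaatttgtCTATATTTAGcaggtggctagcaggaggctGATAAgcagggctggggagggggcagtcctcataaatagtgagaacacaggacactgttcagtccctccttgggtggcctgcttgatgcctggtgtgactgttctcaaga
Myom1 (chr17:71019307-71019606, plus strand): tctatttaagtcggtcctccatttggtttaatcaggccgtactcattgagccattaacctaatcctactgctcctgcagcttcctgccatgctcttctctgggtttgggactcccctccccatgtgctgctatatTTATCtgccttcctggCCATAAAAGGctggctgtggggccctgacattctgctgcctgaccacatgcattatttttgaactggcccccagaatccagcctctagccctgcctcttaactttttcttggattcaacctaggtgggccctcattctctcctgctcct
The Mybpc3 window holds a MEF2 box, found in 2 of the 11 member windows (the other is that of Ttn) and in 3.19% of all windows, and the Myom1 window holds a CArG box. Each also has a GATA match.

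Relative to other heart muscle genes, the members were spread around 0. Arrays were centred on the mean log2 signal of 32 tested genes of the thin filament, the Z-disc and other cardiomyocyte functions, which hold no member and were themselves 0.80 higher in the heterozygous pools on the log2 scale. On this scale 0 of the 10 tested member probe sets were higher and 3 were lower, where 1.56% of all tested probe sets were higher and 63.8% lower. The 3 were Myh6 (log2 change -0.40, SE 0.11, adjusted p = 0.0132), Myl2 (-0.41, SE 0.12, adjusted p = 0.0142) and the dimmer probe set of Myl4 (-0.99, SE 0.18, adjusted p = 0.00120). Myh6 relative to these genes was 3.09 and 3.12 in the heterozygous pools, against 3.57 and 3.44 in the wild-type pools, without overlap. Mybpc3 was 2.04 and 2.43 in the heterozygous pools, against 1.99 and 1.93 in the wild-type pools, also without overlap but in the other direction, and it did not pass (0.27, SE 0.15, adjusted p = 0.131). Myh7 (-0.36, adjusted p = 0.101) and Myl3 (-0.13, adjusted p = 0.379) did not pass. Myl7 (0.043), the brighter Myl4 probe set (0.032), Myom1 (0.078) and Myom2 (-0.059) lay within 1 SE of 0.

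**Figure D4:**
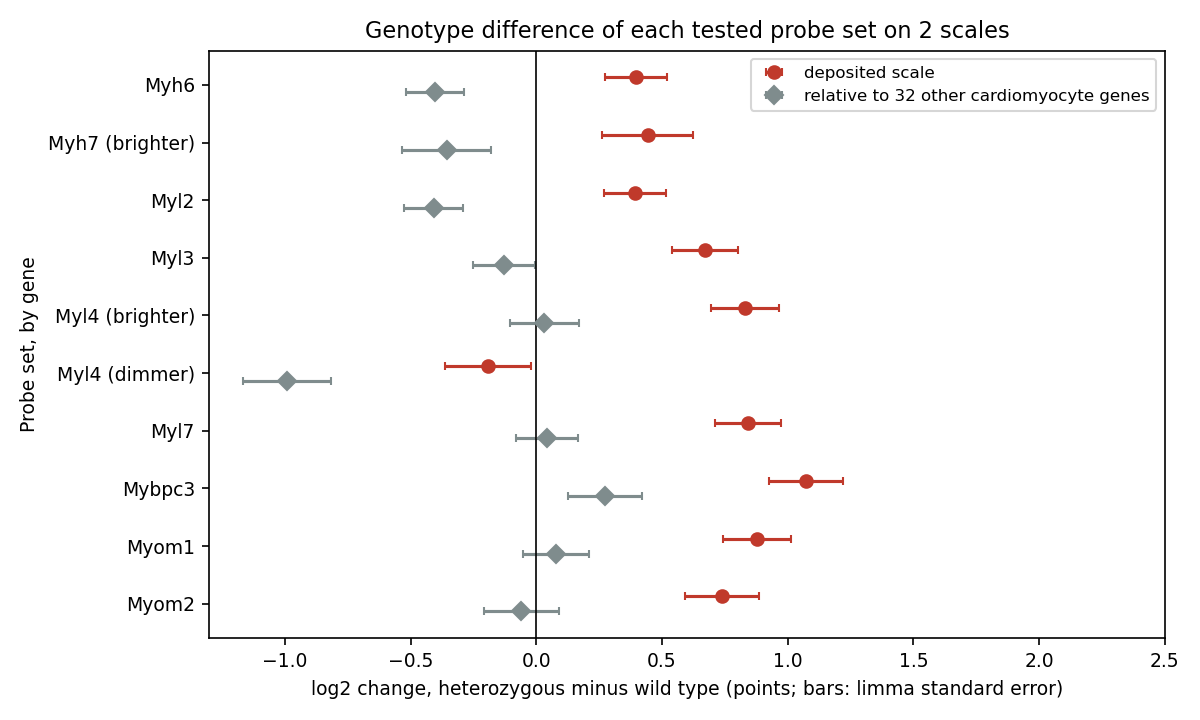
Log2 change, heterozygous minus wild type, of the 10 tested member probe sets with limma's standard error, on the deposited scale (circles) and relative to 32 other heart muscle genes (diamonds). On the deposited scale 9 of 10 lie above 0, and on the relative scale Myh6 and Myl2 lie near -0.4 while Mybpc3 stays above 0 at 0.27.

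The brightest members were not those with the largest increases. By mean signal over all 12422 probe sets without controls, Myh6 ranked 3rd, Myl2 5th and Myl3 10th from the top, and their log2 changes were 0.40, 0.39 and 0.67. Mybpc3 ranked 58th and Myl7 124th, with log2 changes of 1.07 and 0.84. The other tested member probe sets were dimmer and followed no single order. They were the brighter Myl4 (167th, 0.83), the brighter Myh7 (332nd, 0.44), Myom1 (372nd, 0.88), Myom2 (609th, 0.74) and the dimmer Myl4 (3553rd, -0.19). Whether the response of such bright probe sets was compressed was not tested.

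Further genes of the thick filament and M-band were taken from a list of 29, of which 15 were measured and 12 tested. Of these 12, 6 were higher, 2 were lower and 4 were not called, and the median log2 change was 0.55. Smyd1, a methyltransferase of striated muscle that acts in myosin assembly, had the smallest p, with signals of 23036 and 19321 in the heterozygous pools, against 6854 and 6406 in the wild-type pools (3.18-fold, log2 change 1.67, SE 0.14, adjusted p = 6.5e-05). Fhl2, a LIM protein that binds titin, rose 1.83-fold, Ckm, the creatine kinase found at the M-band, rose 1.93-fold, and Speg, a kinase of striated muscle, rose 2.49-fold. The 2 that fell were Capn3, a protease that binds titin (log2 change -0.98, named after its values were seen), and Myh1, a fast skeletal heavy chain (-0.96). Fast skeletal muscle genes, which could reach a heart sample with other tissue, were lower in 6 and higher in 2 of 12 tested cases, and their signals summed to 23259 and 23515 in the heterozygous pools, against 31725 and 29164 in the wild-type pools. The fast skeletal genes with the smallest p were Pvalb (log2 change -1.28), Actn3 (-2.61), Tnnc2 (-0.93) and Myh1. The 2 that rose, named after their values were seen, were Myl1 (0.64) and Casq1 (0.54). The fast skeletal list and the list above it share genes, Myh1 and Myl1 among them. The part of fast skeletal muscle tissue in the changes of the shared-probe Myh7 sets was not tested.

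Thin filament and Z-disc genes were mostly higher too: of 16 tested, 11 were higher, 0 were lower and 5 were not called, and the median log2 change was 0.66. The smallest p belonged to Xirp1 (log2 change 2.17), Ldb3 (1.88), Csrp3 (0.94) and Cryab (0.86). The cardiomyocyte genes outside the sarcomere with the smallest p were the sodium-calcium exchanger Slc8a1 (1.29), S100a1 (1.11), Hrc (1.18) and Nkx2-5 (1.21). Among smooth muscle genes, which have a myosin of their own, 1 of 7 was higher (Acta2, log2 change 0.74), 0 were lower, and the smooth muscle heavy chain Myh11, named after its values were seen, did not pass (0.13, adjusted p = 0.663).

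The genes whose signals over the 4 pools ran most like those of Myh6 were Pygo2, Uhrf1bp1, Ube2r2, Gga2 and Sh2b1, out of 5683 other tested genes. Likeness was the Euclidean distance between log2 signals centred on the mean of the 4 pools, and it ran from 0.019 for Pygo2 to 0.044 for Sh2b1. Pygo2, the closest, had signals of 1037 and 1036.7 in the heterozygous pools, against 842.1 and 742.7 in the wild-type pools. For Myh7 the closest were Atg2a, Csrp2, Gpaa1, Tbl1x and Klc1, at distances of 0.078 to 0.092. With 4 pools of 2 genotypes such distances describe these arrays only, and none of these 10 genes passed the test between genotypes.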

How the data were processed

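Each of the 4 arrays measured RNA of 1 pool of hearts. The authors deposited signal intensities on a linear scale, 1 value for each probe set on an array. Heterozygous pool 2 had no values for the 66 controls, so it held 12422 values, against 12488 on each other array. The software that summarised probes was not named in the labels or headers used here. Trimmed means (2% at each end, without the 66 controls) ran from 1486.5 to 1488.07, so values were used as deposited. Signals under the 10th percentile (36.25) were set to that value before log2 transformation. Of 12422 probe sets, the 40% with the lowest mean were left out, and 7453 were fitted with limma 3.58.1 (lmFit, eBayes with a trend) in R 4.3.3, genotype being the only term, with Benjamini-Hochberg adjustment over all of them. The fit was also run on simulated data as a check of the code. Spreads were shuffled among probe sets there, unlike in the real data, so it says nothing on the calls here. Intervals are 95% and unadjusted. Precision is limited by the 4 arrays.

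Gene names came from the platform annotation (10855 probe sets with 1 symbol, 396 with several, 1237 with none), and only those with 1 were named. By gene ID, 10839 were found in GRCm38.p6 and 0 symbols changed. For a list, the brightest probe set of a gene was used. Members and lists were chosen with earlier results of these data known. Named genes are every member probe set, up to 4 genes of smallest p in a list, and the 5 genes closest to Myh6 and to Myh7. Any others were named after their values were seen. Isoform ratios used the brightest probe set of each gene. Alternatives changed the scaling, the floor, the filter, the moderation, the threshold or the pool block, or left out a pool. Plots were drawn with matplotlib 3.10.9.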

Additional observations from a re-analysis of the deposited data

How the results depend on the processing

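With 2 pools per genotype, calls near the threshold depended on single choices. All 2856 calls became 4872 with arrays centred on 32 heart muscle genes, 1206 without the filter on dim probe sets, 1659 at a threshold of 0.01, and 1707 to 2289 with 1 pool left out. Of these, 46.8% were higher as deposited and 2.38% after that centring. Member probe sets called numbered 8 as deposited, 5 under cyclic loess, 3 (all lower) after the centring, 1 without the filter, and 4 to 9 with 1 pool left out. Their median log2 change was 0.84 with a common median, 0.51 under quantile normalization, 0.40 under cyclic loess and -0.094 after the centring. By construction, the centring lowers every gene by about 0.80, and with it Myh6 (-0.40), Myh7 (-0.36), Myl2 (-0.41), Myl3 (-0.13) and Myom2 (-0.059) turned below 0. Under cyclic loess Myh6 (-0.029) and Myl2 (-0.027) did so, and the cause was not tested. The ratio Myl7 over Myl2 was 0.62 under quantile normalization and 0.57 under cyclic loess. Myh7 over Myh6 was 0.26 under cyclic loess, -0.58 with all probe sets of a gene averaged, and -0.14 to 0.23 with 1 pool left out, and Myl4 over Myl3 was -0.35 with all probe sets averaged. With the pool number as a replicate block there were 3035 calls in all and 8 among the members, so no member call changed. The numbers are not known to pair pools (correlation of same-numbered deviations 0.16, across probe sets). The dimmer Myh7 probe set was untested because of the filter on the lowest 40%.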
